A study of Mus musculus with 2 samples.

Results

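In all, 10 genes for matrix proteases, their inhibitors and plasminogen activation were followed in mouse bone marrow-derived macrophages, cells grown from marrow in macrophage colony-stimulating factor (M-CSF). They are Mmp8, Mmp9, Mmp12, Mmp13, Mmp14, Mmp19, Timp1, Timp2, Plau and Plaur. They were taken by symbol, 10 of the 40017 symbols in the deposited table, and each of the 10 has a single row. The KO library came from Spp1-floxed mice (SPP1fl/fl-Lyz2-icre) in which a Cre recombinase is driven from Lyz2, a gene of myeloid cells. The WT library came from SPP1fl/fl mice, which carry the floxed alleles without the Cre. Effects of the Cre allele and of Spp1 loss therefore cannot be told apart. Both cultures had 5 days with M-CSF at 20 ng/ml, and the sources used here do not give the animals' age, sex, number or pooling.

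Each genotype has 1 library, so no spread between cultures is known and no difference below has a test. Values are the authors' FPKM, which divides the fragments assigned to a gene by its length and by the mapped total of the library, and so allow levels of different genes to be set side by side per length. Depth, estimated from the steps between low FPKM values, was 34.6 M (mega) reads for KO and 45.3 M for WT. Spp1, the targeted gene for osteopontin, had 11.3 FPKM in KO and 4006 in WT. The pan-macrophage genes Csf1r (851.8 FPKM KO, 834.7 WT), the M-CSF receptor, and Cd68 (1684 and 1825 FPKM) were abundant in both libraries.

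Matrix metalloproteinases (MMPs) are zinc-dependent endopeptidases made as latent proenzymes that cut collagens, elastin and other matrix proteins. Tissue inhibitors of metalloproteinases (TIMPs) bind the active site and block it. Urokinase, the product of Plau, cleaves plasminogen to plasmin, and its receptor uPAR, the product of Plaur, holds it at the cell surface, where plasmin degrades fibrin and can activate several proMMPs. Macrophages use both systems to move through tissue and to remodel it, and osteopontin is itself a substrate of several MMPs.

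The 10 genes kept nearly the same order of level in the libraries, and most of them differed little between genotypes. Levels spanned 680.2-fold in KO, from Mmp9 at 0.338 FPKM to Mmp12 at 229.8 FPKM, and 427.8-fold in WT, from 0.549 to 234.8 FPKM for the same genes. From high to low, the WT order was Mmp12, Timp2, Plaur, Plau, Mmp14, Mmp19, Mmp8, Mmp13, Timp1 and Mmp9. In KO, Plau stood above Plaur, and the rest of the order was as in WT. Without replicates, it is not known which neighbours in this order lie within the spread between cultures. The narrowest steps were 1.09-fold, between Timp1 and Mmp9 in KO, and 1.21-fold, between Mmp8 and Mmp13 in KO.

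**Figure D1:**
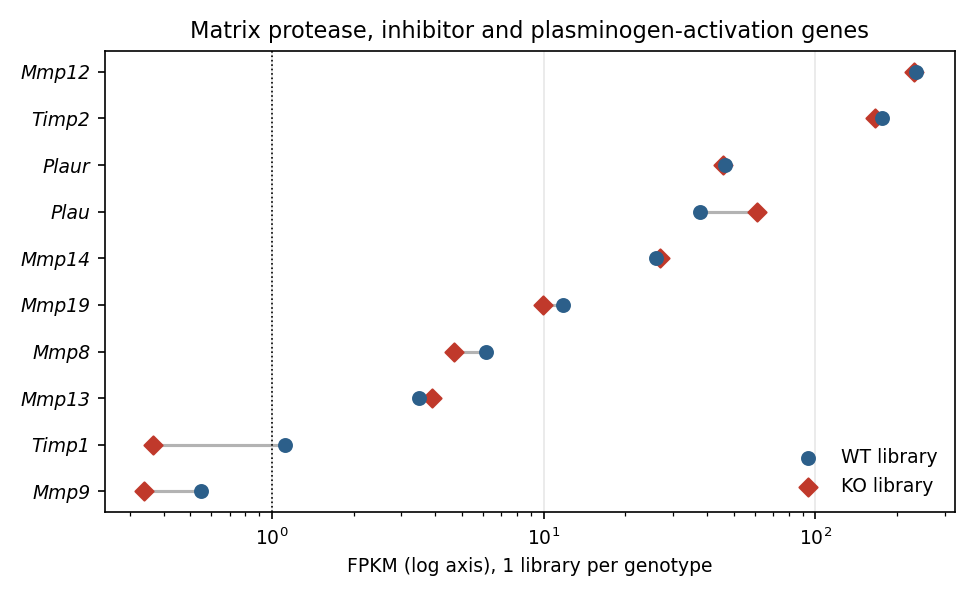
Level of each of the 10 genes in the KO library (red diamonds) and the WT library (blue circles), in FPKM on a log axis, ordered by the WT level. The dotted line marks 1 FPKM. Timp1 (0.367 FPKM KO, 1.12 WT), Mmp9 (0.338 and 0.549 FPKM) and Plau (60.9 and 37.6 FPKM) have the widest gaps, while Mmp12, Plaur and Mmp14 nearly coincide.

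Differences are those of log2(FPKM + 1), with WT subtracted from KO; adding 1 shrinks the change of low genes. A difference of 1 or more in either direction counted as higher or lower in KO, a 2-fold rule that is no test. The count covered the 10536 symbols whose mean FPKM over both libraries reached 1. Of the 10 genes, 8 passed this filter, and Timp1 and Mmp9 lay below it. None of the 8 was higher and none lower by the 2-fold rule, against 1.23% of all 10536 symbols higher and 0.475% lower. By a 1.5-fold rule on the same scale, 1 of the 8, Plau, was higher and 0 were lower, against 3.24% of all symbols higher and 1.15% lower. The median difference was -0.03 over the 8 genes and -0.01 over all 10536 symbols. Of the 8, 5 were below 0, against 52.6% of all 10536 symbols.

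**Figure D2:**
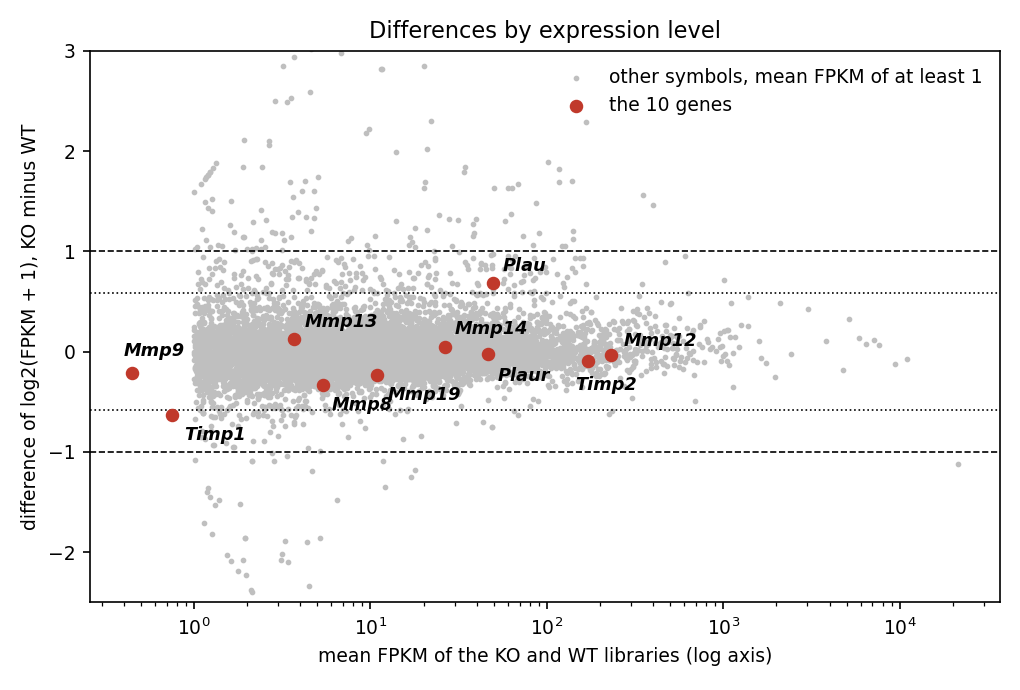
Difference of log2(FPKM + 1), KO minus WT, against the mean FPKM of the libraries on a log axis, with the 10 genes in red and the other symbols past the filter in grey. Dashed lines mark the 2-fold rule and dotted lines the 1.5-fold rule. Plau at 0.68 lies above the upper dotted line, and the other genes past the filter lie between -0.33 and 0.12. Timp1 and Mmp9, below the filter, are also drawn, and Timp1 at -0.63 lies below the lower dotted line. The 22 symbols beyond the plotted range of -2.5 to 3, Spp1 among them, are not drawn.

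Mmp12, macrophage elastase, which cuts elastin, was the most abundant of the 10 genes. It reached 229.8 FPKM (KO) and 234.8 FPKM (WT), number 227 and number 218 of all symbols. Its difference was -0.03, and the KO level was 97.9% of the WT level. Mmp12 alone made up 83.4% of the summed FPKM of the 6 MMP genes in KO and 83.1% in WT. The elastase was therefore the main MMP transcript per length in either genotype, at nearly the same level.

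Mmp14 encodes MT1-MMP, a membrane-anchored collagenase that also activates proMMP2. It measured 26.8 FPKM in KO against 25.9 in WT, a difference of 0.05, which became -0.01 with sums set equal without Lyz2 and Spp1. The gene lies on chromosome 14, 54431612 to 54445364, plus strand (ENSMUSG00000000957.11). Mmp2, the gene of that target proenzyme, had 0.247 FPKM in KO and 0.0911 in WT, so little of its transcript was present. Mmp19, a secreted MMP of broad matrix specificity, reached 9.92 FPKM (KO) and 11.8 FPKM (WT), a difference of -0.23. In the annotation Mmp19 (ENSMUSG00000025355.7, chromosome 10, 128790910 to 128800824, plus strand) overlaps Tmem198b on the opposite strand, at 6.20 FPKM in both libraries. Strand use in the counting is not given, so reads of that overlap cannot be assigned.

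The collagenase genes Mmp8 and Mmp13 were present at a few FPKM. Mmp8, neutrophil collagenase, measured 4.67 FPKM in KO against 6.13 in WT, a difference of -0.33 and the lowest among the 8 genes past the filter. Of all symbols past the filter, 3.92% had a difference as low or lower. Mmp13, collagenase-3 of cartilage and bone, had 3.87 FPKM in KO and 3.48 in WT (0.12). These collagenase genes differed in opposite directions, both within 1.5-fold.

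Mmp9, gelatinase B, which degrades denatured and basement membrane collagen, had the lowest level of the 10 genes. It reached 0.338 FPKM (KO) and 0.549 FPKM (WT), with 61.6% of the WT level left in KO and a difference of -0.21. At the estimated depths and the longest annotated transcript, these values correspond to about 37 reads in KO and 79 in WT. Dividing the FPKM ratio by the depth ratio of 1.308 gives the ratio of reads before correction for depth, 8 in KO to 17 in WT. Mmp9 lies on chromosome 2, 164940780 to 164955850, plus strand (ENSMUSG00000017737.2). In the same libraries Mmp14 was 79.3 times as abundant as Mmp9 in KO and 47.2 times in WT.

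Mmp8 and Mmp9 are also known products of neutrophils, so neutrophil genes were read beside them. Of 12 neutrophil marker genes, 10 were below the filter, and Elane, Camp and Ly6g are listed at 0 in both libraries. Mpo, myeloperoxidase, had 0.0452 FPKM in KO, with a 0 listed for WT. The calprotectin subunit gene S100a8 measured 2.86 FPKM in KO against 1.52 in WT, opposite in direction to Mmp8. Over the list of 12, counted at any level, 5 genes were lower in KO, as Mmp8 and Mmp9 were, and 4 were higher. Among all symbols not at 0 in both libraries, 52.6% were lower in KO past the filter and 54.2% below it. At the estimated depths 1 read per kb is about 0.029 FPKM in KO and 0.022 in WT. The direction of most genes on this list therefore rests on few reads. The summed level of the list was 44.5 (KO) and 45.4 FPKM (WT), of which Csf3r, the receptor for granulocyte colony-stimulating factor, gave 41.0 and 43.2 FPKM. The granule genes of neutrophils on the list were at or near 0 in both libraries. The part of neutrophils in the Mmp8 and Mmp9 values was not tested.

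Mmp8, Mmp12 and Mmp13 lie in a cluster of 10 MMP genes on mouse chromosome 9, from 7272514 to 7699585 (GRCm38, GENCODE M21), a span of 427.1 kb. Mmp13 (ENSMUSG00000050578.10) spans 7272514 to 7283331, Mmp12 (ENSMUSG00000049723.14) 7344381 to 7369499 and Mmp8 (ENSMUSG00000005800.3) 7558456 to 7568485, each on the plus strand. Levels along the cluster were uneven. Mmp12 stood 59.3 times above its neighbour Mmp13 in KO and 67.5 times in WT. On its other side Mmp1b, which overlaps the end of Mmp12 on the opposite strand, is listed at 0 in both libraries, as are Mmp1a, Mmp20 and Mmp7. Mmp27 had 3.81 FPKM in KO and 4.20 in WT, below Mmp8 beside it in both.

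Mmp3, stromelysin-1, had the widest gap in the cluster. It reached 0.256 FPKM (KO) and 1.47 FPKM (WT), 5.73-fold lower in KO, with a difference of -0.97 and a mean below the filter. These values correspond to about 16 reads in KO and 120 in WT. Mmp3 was singled out after its values were seen. The genes on either side of it, Mmp1b and Mmp1a, are at 0 in both libraries. Of the next ones outward, Mmp12 showed no such gap. Mmp10 showed none either, but its values (0.133 FPKM KO, 0.101 WT) rest on few reads.

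**Figure D3:**
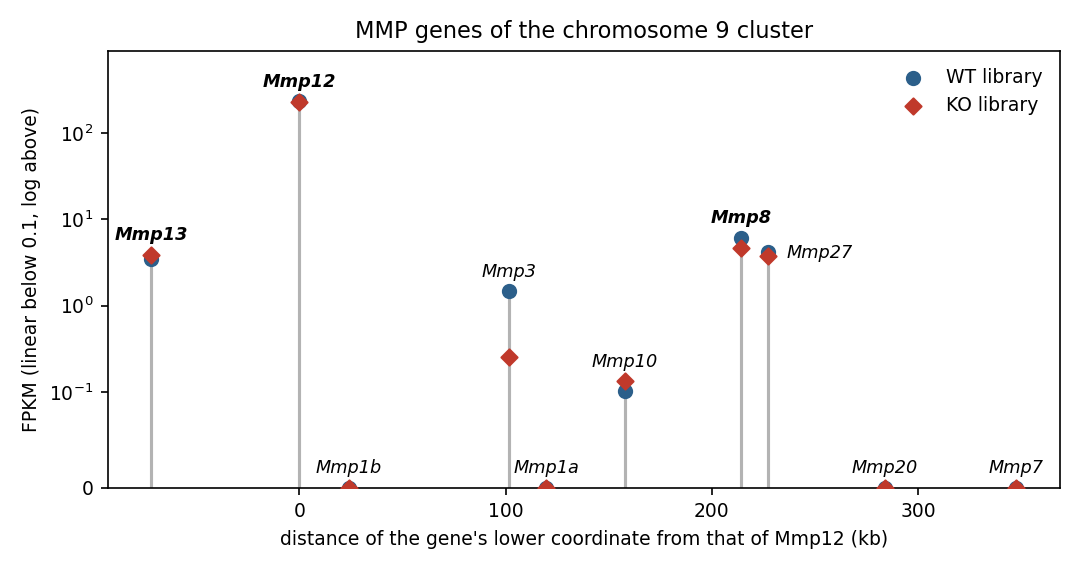
Level of the 10 MMP genes of the chromosome 9 cluster in the KO (red diamonds) and WT (blue circles) libraries, against the distance of each gene from Mmp12 in kb. The FPKM axis is linear below 0.1 and log above, and Mmp8, Mmp12 and Mmp13 are in bold. Mmp12 stands at about 230 FPKM in both libraries, and Mmp3 (0.256 FPKM KO, 1.47 WT) has the widest gap.

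Promoter sequence from RefSeq (GRCm38.p6) was matched by symbol for 7 of the 10 genes, all but Mmp9, Mmp19 and Plau. Windows of 300 bases, from 250 before to 50 after each annotated start, were searched on both strands for TGANTCA, the binding letters of the AP-1 factor family, which is known to act on many MMP genes. The 7 genes have 8 windows, Mmp12 having a pair, and 3 of the 8, those of Mmp12, Mmp13 and Plaur, held the motif, against 7.81% of all 32851 windows. In Mmp12 the motif stood in the window printed here, which belongs to a RefSeq start inside the GENCODE gene span, and the window at the upstream start held none. The 120 bases before the start are shown for these 3 genes because they share the motif, in capitals, while their levels differ widely: Mmp12 at 229.8, Plaur at 45.7 and Mmp13 at 3.87 FPKM in KO. The windows are chr9:7347254-7347373, chr7:24462363-24462482 and chr9:7272394-7272513 in that order, each on the plus strand.
Mmp12: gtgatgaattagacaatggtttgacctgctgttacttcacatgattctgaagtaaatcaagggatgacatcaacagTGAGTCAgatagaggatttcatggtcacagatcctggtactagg
Plaur: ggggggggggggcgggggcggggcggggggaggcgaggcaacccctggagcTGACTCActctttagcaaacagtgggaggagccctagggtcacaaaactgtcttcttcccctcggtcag
Mmp13: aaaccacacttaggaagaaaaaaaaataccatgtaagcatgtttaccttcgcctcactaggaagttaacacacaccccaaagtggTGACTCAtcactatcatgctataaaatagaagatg
The motif began 44 bases before the inner start in Mmp12, 69 before the start in Plaur and 35 in Mmp13, and the differences of these genes were -0.03, -0.02 and 0.12. No TGANTCA was found in the windows of Mmp8, Mmp14, Timp1 and Timp2. A match of letters is a description and shows no binding. The core of the interferon-stimulated response element, GAAANNGAA, was found in 1 of the 8 windows, that of Mmp13, against 8.56% of all windows.

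The inhibitor genes differed more in level than in genotype. Timp2, whose product inhibits MMPs broadly and also bridges MT1-MMP to proMMP2, measured 165.2 FPKM in KO against 175.8 in WT, a difference of -0.09. Timp2 (ENSMUSG00000017466.9) lies on chromosome 11, 118301069 to 118355740, minus strand, and overlaps Cep295nl on the same strand, at 0.348 (KO) and 0.749 FPKM (WT). The transcript was 6.17 times as abundant as that of Mmp14 in KO and 6.79 times in WT. Summed over the 6 MMP genes and over both TIMP genes, the ratio of MMP to TIMP transcripts was 1.66 in KO and 1.60 in WT. Such a ratio within a library does not depend on the library's scaling. It rests on Mmp12 and Timp2, which dominate the sums.

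Timp1, the inducible inhibitor that binds proMMP9 among others, was low in both libraries and lower in KO. It had 0.367 FPKM in KO and 1.12 in WT, 3.06-fold lower in KO, with a difference of -0.63. At the estimated depths this is about 11 reads in KO and 45 in WT. Before correction for depth, the reads stood in a ratio of 1 to 4. The mean level lay below the filter, so Timp1 does not enter the counts above. The difference was -1.39 with a pseudocount of 0.1 and -0.19 with a pseudocount of 5. It was -0.96 with the libraries scaled to equal sums, and -0.65 with equal sums without Lyz2 and Spp1. The former scaling shifted differences by a median of only 0.01, so the -0.96 reflects the weight of the added 1 at this low level. Timp2 was 450.1 times as abundant as Timp1 in KO and 156.6 times in WT. Timp1 (ENSMUSG00000001131.11, chromosome X, 20870166 to 20874735, plus strand) overlaps Syn1 on the opposite strand, which had 3.61 (KO) and 4.15 FPKM (WT), and reads of the overlap cannot be assigned without strand.

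Markers of stromal cells, which make Timp1 and Mmp3 in many tissues, lay in the same direction. All 10 stromal markers were lower in KO, and 2 of them, Dcn and Bgn, passed the filter. Of all symbols, 52.6% were lower in KO past the filter and 54.2% below it, leaving out those at 0 in both libraries. Decorin (Dcn), a collagen-binding proteoglycan, reached 1.46 FPKM (KO) and 4.23 FPKM (WT), and biglycan (Bgn) 1.84 and 3.18 FPKM. The fibroblast receptor gene Pdgfra stood at 0.103 and 0.411 FPKM, and Thy1 is listed at 0 in KO and stood at 0.0507 FPKM in WT. The list summed to 4.36 (KO) and 10.1 FPKM (WT), 2.31-fold lower, beside 3.06-fold for Timp1 and 5.73-fold for Mmp3. In bulk RNA, fewer cells of a type and less RNA per cell cannot be told apart. Some other genes that stromal cells express lay in the opposite direction: Mmp2, given above, the fibrillin gene Fbn1 (0.218 FPKM KO, 0.144 WT) and Col4a2, a basement membrane collagen gene (0.268 and 0.147 FPKM). Most of the matrix substrate list, which shares Col1a1, Col1a2 and Col3a1 with the stromal markers, did not. Of its 13 genes, 10 were lower in KO and 3 higher, counted at any level, and 11 lay below the filter. The part of stromal cells in the Timp1 and Mmp3 values was not tested.

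**Figure D4:**
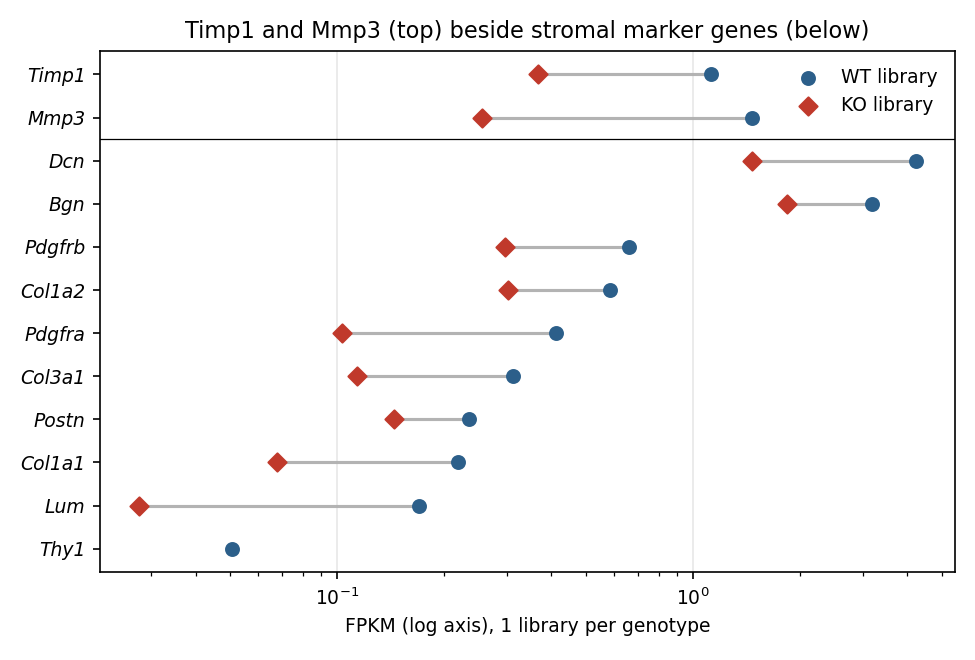
Level of Timp1 and Mmp3 (top) and of the 10 stromal marker genes (below the line) in the KO (red diamonds) and WT (blue circles) libraries, in FPKM on a log axis. Each gene drawn in both libraries has its KO value to the left of its WT value, as with Dcn at 1.46 and 4.23 FPKM. Thy1, listed at 0 in KO, has its WT point only.

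Plau, the gene of urokinase, had the largest difference of the 8 genes past the filter. It measured 60.9 FPKM in KO against 37.6 in WT, 1.62-fold higher in KO, with a difference of 0.68. It was number 1093 of all symbols in KO and number 1790 in WT. Of the 10536 symbols past the filter, 278 (2.64%) had a difference at least as high. Plau (ENSMUSG00000021822.3) lies on chromosome 14, 20836660 to 20843385, plus strand, and overlaps no other annotated gene. The values correspond to about 4936 reads in KO and 3986 in WT, and the spread between cultures is unknown.

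Plaur, the gene of the urokinase receptor, was level. It had 45.7 FPKM in KO and 46.6 in WT, a difference of -0.02 (ENSMUSG00000046223.10, chromosome 7, 24462484 to 24475968, plus strand). The ratio of Plau to Plaur transcripts was 1.33 in KO and 0.807 in WT, 1.65 times as high in KO. The urokinase transcript was thus above that of its receptor in KO and below it in WT. Plg, plasminogen itself, is listed at 0 in KO and in WT.

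The other genes of the plasminogen system were close to level, and the partners of uPAR varied more. Of 13 genes of the plasminogen system, 8 passed the filter, with a median difference of 0.00 and a range of -0.18 to 0.15. Anxa2, annexin A2, which with S100a10 forms a cell surface receptor for plasminogen, measured 347.1 FPKM in KO against 345.8 in WT. Serpinb6a, an intracellular serine protease inhibitor, stood at 267.7 and 303.3 FPKM. Among 10 partners of uPAR, the integrins and formyl peptide receptors among them, 8 passed the filter, with a median of 0.08 and a range of -0.30 to 0.53. The formyl peptide receptor gene Fpr2 was at the upper end (7.26 FPKM KO, 4.72 WT), and the integrin chain Itgb3 at the lower (10.2 and 12.7 FPKM). Itgam and Itgb2, the chains of the Mac-1 integrin that uPAR associates with, stood at 303.9 and 483.3 FPKM in KO and 323.4 and 476.1 FPKM in WT.

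With the plasminogen system and the uPAR partners included, 86 genes around matrix breakdown were read by list, and 39 of them passed the filter. None was higher or lower by the 2-fold rule or by the 1.5-fold rule, beside the shares of all symbols given above. As a plain FPKM ratio, without the added 1, Fpr2 was 1.54-fold higher in KO. Mmp3, described before, is among the 47 genes below the filter. Over the 39 genes the median difference was 0.04, with 24 above 0 and 15 below. Of all symbols past the filter, 4989 were above 0 and 5547 below. Of 17 other MMP genes 1 passed the filter, Mmp27, and 5 of the 17 are listed at 0 in both libraries. The ADAM and ADAMTS list, membrane-bound and secreted relatives of the MMPs, had 6 of 14 genes past the filter and a median of 0.01, with Adam8 at 147.7 (KO) and 157.8 FPKM (WT) and Adam15 at 127.2 and 128.4 FPKM.

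Cysteine cathepsins, the lysosomal proteases that macrophages can also secrete, and their cystatin inhibitors summed to 16195 FPKM in KO and 13742 in WT, the highest sum of the lists of matrix breakdown. All 10 genes passed the filter, with a median of 0.14 and none past the 1.5-fold rule. Of the 10, 9 were above 0, against 4989 of all 10536 symbols past the filter. Ctsb, cathepsin B, had 6184 FPKM in KO and 5622 in WT, against 229.8 and 234.8 FPKM for Mmp12, so its transcript per length far exceeded that of any of the 6 MMP genes. Ctss, cathepsin S, had 5737 FPKM in KO and 4574 in WT, a difference of 0.33. The highest difference of the list, 0.54, was that of an inhibitor, the cystatin gene Cst3 (1630 FPKM KO, 1118 WT). Among other MMP regulators, 4 of 9 genes passed the filter, with a median of -0.03. Lrp1, an endocytic receptor that clears proteases and their inhibitors, stood at 303.9 and 324.1 FPKM, and Bsg, an inducer of MMPs known as EMMPRIN, at 134.5 and 118.0 FPKM. Of 13 matrix substrate genes, only Fn1, fibronectin (11.2 and 13.0 FPKM), and Lamc1, a laminin chain (5.74 and 6.59 FPKM), passed the filter, with a median of -0.18. The collagen genes Col1a1, Col1a2 and Col3a1 of that list also stand among the stromal markers.

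**Figure D5:**
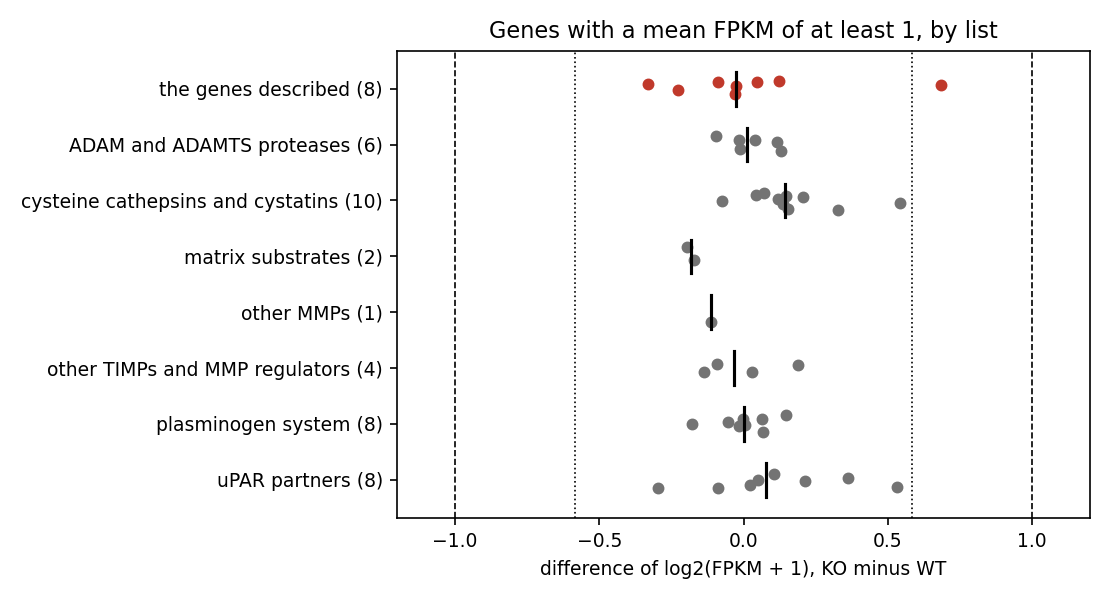
Difference of log2(FPKM + 1), KO minus WT, for each gene with a mean FPKM of at least 1, by list, with the number of genes in brackets and a black bar at the median. The vertical position within a list has no meaning. Dashed lines mark the 2-fold rule and dotted lines the 1.5-fold rule. Among the points drawn, Plau, at 0.68, is the only one beyond a dotted line. The cell marker lists are not drawn. In them Lyz2 (-1.12), Dcn (-1.09), Fcgr1 (0.93) and S100a8 (0.62) were past the 1.5-fold rule.

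Osteoclasts, which form from the same precursors and use Mmp9, Mmp14 and cathepsin K, were read by 7 marker genes. Acp5, the tartrate-resistant phosphatase, reached 21.8 FPKM (KO) and 19.6 FPKM (WT), and Ctsk, cathepsin K, 32.0 and 33.8 FPKM. Dcstamp, which is needed for the fusion of osteoclast precursors, had 3.999 FPKM in KO and 2.402 in WT, a difference of 0.56, and Nfatc1, a transcription factor of osteoclast formation, had 18.5 and 21.3 FPKM (-0.20). The list summed to 76.4 (KO) and 77.2 FPKM (WT). Of 9 macrophage marker genes, all past the filter, 1 was lower by the 2-fold rule, Lyz2, the gene that drives the Cre (13539 FPKM KO, 29499 WT), and Fcgr1, the high-affinity IgG receptor gene, was higher by the 1.5-fold rule (190.2 and 99.2 FPKM). That list summed to 17535 (KO) and 33461 FPKM (WT), a gap that is nearly all Lyz2. Whether these values bear on Plau was not tested.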

How the data were processed

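RNA from 1 KO and 1 WT culture was measured. The values are the authors' deposited FPKM, in 1 table whose rows carry gene symbols. RSEM, DESeq2 and mm10 are named in the submitters' processing notes, with no role or version. The sources used here do not give the aligner, annotation, strand use or filters. Of the table's 4 value columns, 2 carry sample titles and were used. The other 2 (WT-CM, KO-CM) fit no sample's labels and enter no result.

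Where a symbol had several rows, that with the highest mean FPKM was kept (40017 symbols from 42396 rows). Depth was estimated from low values of genes with 1 annotated transcript: at 34.6 M (mega) reads for KO and 45.3 M for WT, 41.6% and 42.7% of these values lay within 0.05 of a whole number of reads, against 14.6% and 14.9% at a depth wrong by 5%. Read numbers use the longest GENCODE M21 transcript (GRCm38, the mm10 build), which need not be the authors' length, so no counting interval is given. Differences are log2(FPKM + 1), KO minus WT, and symbols whose mean FPKM reached 1 were counted. With 1 library per genotype there is no test. Computation used Python 3.11.15 and pandas 2.3.3, and the counting and depth steps were tested on simulated data.

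The 10 genes, the gene lists and the rules were chosen with earlier results of these data known. Named genes were the 10, Spp1, and from each list those past the 1.5-fold rule and the 2 most abundant. Any other gene named was chosen after its values were seen or to fill a role in the pathway. Alternatives were pseudocounts of 0.1 and 5, other scalings, summed rows, a level trend removed, other filters (none, mean FPKM of 5) and thresholds of 1.5-fold and 3-fold. Equal sums without Lyz2 and Spp1, a filter on the higher library and a stromal sum without Dcn and Bgn were added after seeing the data.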

Additional observations from a re-analysis of the deposited data

How the results depend on the processing

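No paired analysis was possible because each genotype has 1 library and the labels give no replicate numbers; leaving out a replicate could not be done for the same reason. The median difference of the 8 genes past the filter ran from -0.09 to -0.02 over the 9 alternatives. With a threshold of 1.5-fold, 1 of these genes was higher (Plau) where the 2-fold rule gave 0. The difference of Plau ran from 0.63 to 0.70. Mmp14 turned from 0.05 to -0.01 with equal sums without Lyz2 and Spp1, and no other of the 10 genes changed sign under any alternative run. Timp1 ran from -0.19 (pseudocount 5) to -1.39 (pseudocount 0.1), where it passed the size of the 2-fold rule, and Mmp9 from -0.06 to -0.57: at these low levels the size depends on the pseudocount. The log2 ratio of KO to WT for summed MMPs over summed TIMPs was 0.06. With medians of log2 FPKM, taken without the added 1, it was 0.53. These medians give Timp1, at about 11 reads in KO and 45 in WT, the same weight as Timp2. The log2 ratio of the stromal sum was -1.21, and -1.33 without Dcn and Bgn. Depth limits Timp1 and Mmp9 most, which had the fewest estimated reads. The missing replicates limit every difference.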
